A study of Mus musculus with 12 samples.

Results

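Cathepsins are the resident proteases of the lysosome, and 10 of them were followed here in alveolar macrophages, the phagocytes that live on the air side of the lung. The genes were chosen by symbol, as members of 1 protease group, and all 10 were present among the 55291 gene symbols of the deposited table. By catalytic class they comprise 7 cysteine proteases (Ctsb, Ctsc, Ctsh, Ctsk, Ctsl, Ctss and Ctsz), 2 aspartic proteases (Ctsd and Ctse) and 1 serine protease (Ctsa). All 10 passed the filter on low values and were among the 19633 genes tested, and none of the 12 mice lay at the lowest value shared by 2 or more mice of its sort batch, the level taken for mice without reads.

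Macrophages were flow-sorted from the lungs of female C57BL6/NJ mice aged 8 to 11 weeks. One group of 6 mice had breathed ozone at 0.8 ppm and the other 6 had breathed filtered air, in both cases for 4 h on each of 4 days, and lungs were taken 3 days after the last exposure. No group carried an engineered allele per the labels, and each sample is 1 mouse. The sort was done in 2 batches, each with 3 mice of each group. Polyadenylated RNA was sequenced.

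Most cathepsins are made as inactive precursors, carried to endosomes by sorting receptors and activated there by proteolysis at acid pH. The aspartic members cut inside proteins, the cysteine members cut inside proteins, trim their ends or do both, and the serine member removes single residues from the carboxyl end. In macrophages they degrade engulfed material, process antigen and the invariant chain of MHC class II, and activate other lysosomal enzymes.

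Expression was deposited in variance-stabilized log2 units, with the filtered-air mean of every gene at 0. The abundance of a gene was therefore not kept, levels cannot be ranked between cathepsins, and differences are compressed for genes with few reads. Total reads per mouse are unknown, and relative depth, read from the size of the step that 1 read makes in low genes, lay between 0.871 and 1.22. In all 14 markers listed for resident alveolar macrophages, none of the 12 mice lay at the lowest value shared within its sort batch. A single mouse without reads in its batch is not seen by this rule. In limma 3 of the 14 were called (Krt79 by -0.35, adjusted p = 0.0177, Ear1 by -0.28, adjusted p = 0.0358, and Car4 by 0.32, adjusted p = 0.0460). Of the 14, 10 had estimates below 0. Of the 67 markers of other cell types, 64 passed the filter, and 1 of these, Tppp3 of ciliated cells, was called (-0.81, limma adjusted p = 0.00158). The other listed ciliated markers, Foxj1, Dynlrb2 and Ccdc113, had estimates above 0 (0.16, 0.078 and 0.073) and were not called. In bulk RNA, fewer cells of a type and less RNA per cell cannot be told apart.

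After ozone, Ctsd rose most clearly and Ctsb rose less, while the other 8 cathepsins did not pass the test. In limma 2 of the 10 had an adjusted p under 0.05, both higher, beside 4.25% of all genes tested called in either direction, 2.41% called higher and 1.84% called lower. In 5 of the 10 all 6 ozone mice lay above the filtered-air mean, beside 10.5% of all genes. The median difference of the 10 was 0.080, against -0.0033 over all genes tested, and 9 of the 10 estimates were above 0. At an unadjusted p under 0.05 there were 5 cathepsins, all higher (Ctsd, Ctsb, Ctsa, Ctsz and Ctsk), beside 16.7% of all genes. By class, 1 of 2 aspartic, 1 of 7 cysteine and 0 of 1 serine members were called, and the median differences were 0.23, 0.013 and 0.13; at an unadjusted p under 0.05 in limma the counts were 1, 3 and 1.

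**Figure D1:**
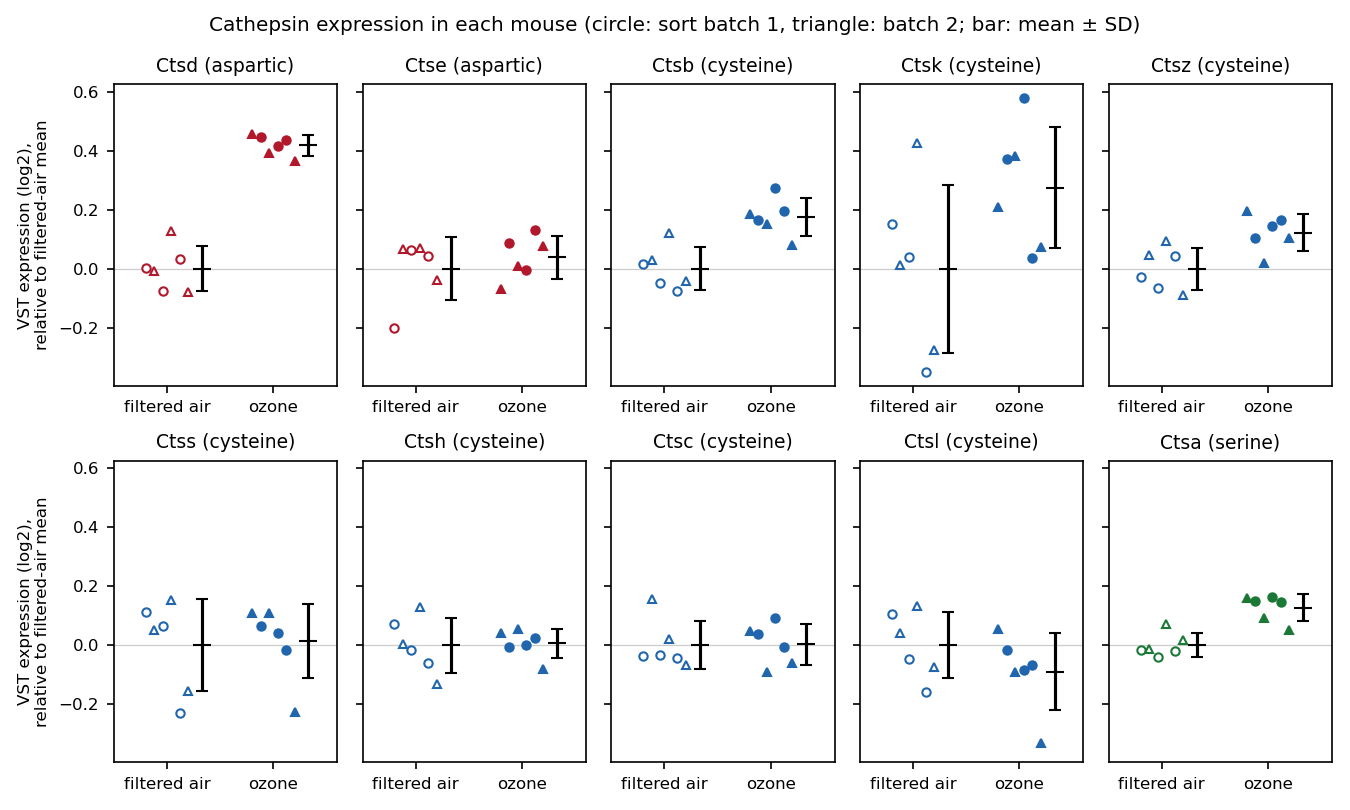
Variance-stabilized expression (log2, relative to the filtered-air mean) of the 10 cathepsins in each of the 12 mice, with open symbols for filtered air, filled symbols for ozone, circles and triangles for sort batches 1 and 2, and bars for mean ± SD of 6 mice. Only in Ctsd do the ozone mice, between 0.36 and 0.46, all lie above the filtered-air mice, which reach 0.13; Ctsk shows the widest spread in both groups.

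Ctsd encodes cathepsin D, the main aspartic endopeptidase of lysosomes. The gene lies on the minus strand at chr7:142375910-142387827 (RefSeq, GRCm38.p6, as for all spans given here). In the 6 ozone mice its values ran from 0.36 through a median of 0.43 to 0.46, and in the 6 filtered-air mice from -0.078 through -0.0032 to 0.13. Every ozone mouse thus lay above every filtered-air mouse, a separation found in 1 of the 10 cathepsins, beside 3.53% of all genes in either direction and 1.96% in that direction. Ctsd rose by 0.42 (SE 0.0405, 95% confidence interval 0.33 to 0.51, limma adjusted p = 0.000112). Ozone mice averaged 0.42 ± 0.0350 (SD, n = 6) and filtered-air mice 0 ± 0.0766 (SD, n = 6). An exact permutation test of the 6 against 6 mice gave a two-sided p of 0.00216, the smallest that its 924 assignments allow. The difference was 0.45 in batch 1 and 0.39 in batch 2, where 3 against 3 mice gave limma adjusted p-values of 0.0179 and 0.123. With each mouse left out in turn the difference stayed between 0.40 and 0.45, and limma's adjusted p between 2.91e-05 and 0.000688.

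Reads of Ctsd can be shared with an overlapping gene model. In the GENCODE M21 annotation, 32.4% of the 50-base words of Ctsd transcripts also occur in Gm49369, a gene model on the same strand that shares 808 exonic bases with it; the annotation behind the table is not given in the sources used here. Gm49369 itself, looked up after this overlap was seen, scattered from -1.22 to 0.61 after ozone and from -0.48 to 0.90 in filtered air, with 3 filtered-air mice at the shared minimum of batch 2 (the -1.22 is a mouse of batch 1), and its difference was -0.050 (SE 0.321, limma adjusted p = 0.965). Ctsd is therefore reported with this uncertainty of assignment.

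A stretch before the RefSeq start of Ctsd is shown because it holds the letters of the palindromic E-box that transcription factors of the MiT/TFE family (Tfeb, Tfe3, Mitf, Tfec) are known to bind at many lysosomal genes. RefSeq promoter windows of 300 bases (GRCm38.p6, 250 bases before and 50 after each annotated start) matched 7 of the 10 cathepsins, in 8 windows. Ctsb, Ctse and Ctsh had no window and were not searched. The letters searched were CACGTG and, containing it, TCACGTGA; both are palindromes, so each match counts for both strands. The 30 bases of Ctsd span chr7:142387908-142387937 on the minus strand, with matches in capitals. They lie before the RefSeq start but inside the gene in GENCODE M21, which places the outermost start of Ctsd 211 bases further upstream, at position 142388038. The window of Ctsa with matches belongs to the more downstream of its 2 annotated starts, and 30 bases of it are shown, at chr2:164833757-164833786 on the plus strand.
Ctsd: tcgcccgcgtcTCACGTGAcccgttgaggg
Ctsa: ctgTCACGTGAtgcagatgcTCACGTGAcc
The longer form begins 99 bases before the RefSeq start in Ctsd, which holds the shorter form also at 245 bases before it, and occurs at 2 places in the Ctsa window, beginning 13 bases before that start and 4 bases after it. These were the 2 of 7 cathepsins with the longer form, which 0.974% of all 32851 promoter windows hold. The shorter form alone adds Ctsl, at 236 bases before its start, and 7.15% of all windows hold it. The motif was searched with the expression differences known, and a match is a description of letters only.

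Ctse encodes cathepsin E, an aspartic protease that resides mostly in endosomes rather than lysosomes. It lies on the plus strand at chr1:131638314-131675507. Its ozone values ran from -0.070 through 0.043 to 0.13 and its filtered-air values from -0.20 through 0.052 to 0.071. The groups overlapped, and 3 of 6 ozone mice lay above every filtered-air mouse. The difference was 0.038 (95% confidence interval -0.075 to 0.15, limma adjusted p = 0.797).

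Ctsa encodes cathepsin A, a serine carboxypeptidase that also serves as the protective protein of the lysosomal enzymes encoded by Glb1 and Neu1. It lies on the plus strand at chr2:164832872-164841032. Its values ran from 0.052 through 0.15 to 0.16 after ozone and from -0.039 through -0.015 to 0.073 in filtered air. All 6 ozone mice lay above the filtered-air mean and 5 lay above every filtered-air mouse, the exception being ozone mouse 6. The difference was 0.13 (SE 0.0351, 95% confidence interval 0.052 to 0.20), and the adjusted p in limma, 0.0584, missed the threshold; an exact permutation test of this gene alone gave p = 0.00433, unadjusted. Without filtered-air mouse 4 the difference was 0.14 (limma adjusted p = 0.0410), and without ozone mouse 6 it was also 0.14 (limma adjusted p = 0.0353). With no batch term (limma adjusted p = 0.0310) or no filter on low values (limma adjusted p = 0.0409) Ctsa passed as well. The exons of Ctsa share 819 bases on the opposite strand with Pltp and Neurl2. Pltp, which encodes phospholipid transfer protein and was looked up for this overlap, fell by 0.30 (SE 0.0690, limma adjusted p = 0.0243). The library kit keeps strand, but whether counting used it is not given in the sources used here.

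Ctsb encodes cathepsin B, a cysteine protease that both cuts within proteins and removes dipeptides from their ends. It lies on the plus strand at chr14:63122462-63145923. Its ozone values ran from 0.081 through 0.18 to 0.27, and its filtered-air values from -0.075 through -0.013 to 0.12. Ozone mouse 6 was the lowest of its group and filtered-air mouse 4 the highest of the other, and these 2 values were the only overlap. Ctsb rose by 0.18 (SE 0.0433, 95% confidence interval 0.082 to 0.27, limma adjusted p = 0.0345), with means of 0.18 ± 0.0630 (SD, n = 6) and 0 ± 0.0720 (SD, n = 6). An exact permutation test gave p = 0.00433, unadjusted. The call for Ctsb was thin: leaving out 1 mouse at a time ended it in 10 of 12 fits, with limma adjusted p-values up to 0.0807 and differences from 0.15 to 0.20. It was kept only without filtered-air mouse 4 (limma adjusted p = 0.0146) or without ozone mouse 6 (limma adjusted p = 0.0231). After quantile normalization the difference was 0.16 and the adjusted p in limma 0.133. Within the sort batches the difference was 0.25 in batch 1 and 0.10 in batch 2, and the interaction of exposure and batch had an unadjusted limma p of 0.0993. A stretch of 774 exonic bases lies opposite Fdft1, an enzyme of sterol synthesis, whose own difference was -0.16 (limma adjusted p = 0.304).

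**Figure D2:**
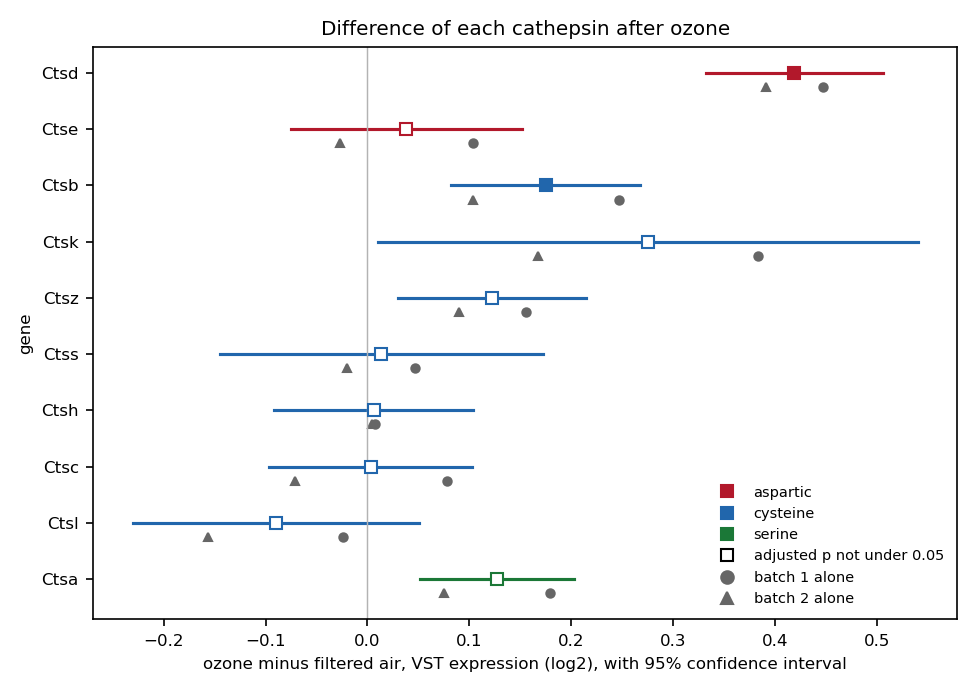
Difference between ozone and filtered air (x axis, variance-stabilized log2 expression) for each cathepsin, with squares for the estimate over 12 mice, lines for its 95% confidence interval, filled squares where the limma adjusted p was under 0.05, and grey symbols for each sort batch alone. Ctsd (0.42) and Ctsb (0.18) are filled; in Ctse, Ctss and Ctsc the batches lie on opposite sides of 0.

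Ctsk encodes cathepsin K, a collagen- and elastin-degrading cysteine protease best known from osteoclasts. It lies on the plus strand at chr3:95499210-95509387. It had the second largest estimate and the widest spread of the 10. Its ozone values ran from 0.037 through 0.29 to 0.58, and its filtered-air values from -0.35 through 0.025 to 0.43. All 6 ozone mice lay above the filtered-air mean, but only 1 lay above every filtered-air mouse. The difference was 0.28 (SE 0.124, 95% confidence interval 0.011 to 0.54, limma adjusted p = 0.275), and an exact permutation test gave p = 0.0823. Filtered-air mouse 4 held the top value of its group at 0.43, and without it the difference was 0.37 (limma adjusted p = 0.0789). Without ozone mouse 4, the top of the other group, it was 0.21 (limma adjusted p = 0.475).

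Ctsz encodes cathepsin X, a cysteine carboxypeptidase. It lies on the minus strand at chr2:174427494-174439039. Its ozone values ran from 0.018 through 0.13 to 0.20 and its filtered-air values from -0.090 through 0.0079 to 0.093. Of the ozone mice, 5 lay above every filtered-air mouse and mouse 3 lay within that group. The difference was 0.12 (95% confidence interval 0.030 to 0.21, limma adjusted p = 0.146; exact permutation test, p = 0.0173, unadjusted).

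The remaining cysteine members did not pass the test, and their groups overlapped. Ctss lies at chr3:95526786-95556405, Ctsc at chr7:88278024-88315861 and Ctsh at chr9:90054267-90076095, all on the plus strand, and Ctsl on the minus strand at chr13:64361890-64370772. Ctss, encoding cathepsin S, which trims the invariant chain in antigen-presenting cells, ran from -0.23 through 0.053 to 0.11 after ozone and from -0.23 through 0.060 to 0.15 in filtered air. Its difference was 0.013 (95% confidence interval -0.15 to 0.17, limma adjusted p = 0.958). Ctsl, encoding the endopeptidase cathepsin L, was the 1 member with an estimate below 0. It ran from -0.33 through -0.077 to 0.055 after ozone and from -0.16 through -0.0035 to 0.13 in filtered air, with 1 of 6 ozone mice above the filtered-air mean. Its difference was -0.090 (95% confidence interval -0.23 to 0.051, limma adjusted p = 0.564), and without ozone mouse 6 it was -0.036; the estimate was below 0 in both batches and without any 1 of the 12 mice. In GENCODE M21 6.46% of the 50-base words of Ctsl occur in other genes and 1742 of its exonic bases lie opposite an antisense gene.

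Ctsh encodes an aminopeptidase that also takes part in surfactant protein processing in alveolar epithelium. Its ozone values ran from -0.080 through 0.013 to 0.053, within the filtered-air span of -0.13 through -0.0057 to 0.13. Its difference was 0.0060 (95% confidence interval -0.092 to 0.10, limma adjusted p = 0.972). Ctsc encodes dipeptidyl peptidase 1, which activates the granule serine proteases of neutrophils and cytotoxic lymphocytes. It ran from -0.090 through 0.015 to 0.091 after ozone and from -0.067 through -0.035 to 0.16 in filtered air. Its difference was 0.0032 (95% confidence interval -0.096 to 0.10, limma adjusted p = 0.986). Ctsk and Ctss are near neighbours on chromosome 3, separated by 17398 bases with 1 annotated gene between them, and gave estimates of 0.28 and 0.013.

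**Figure D3:**
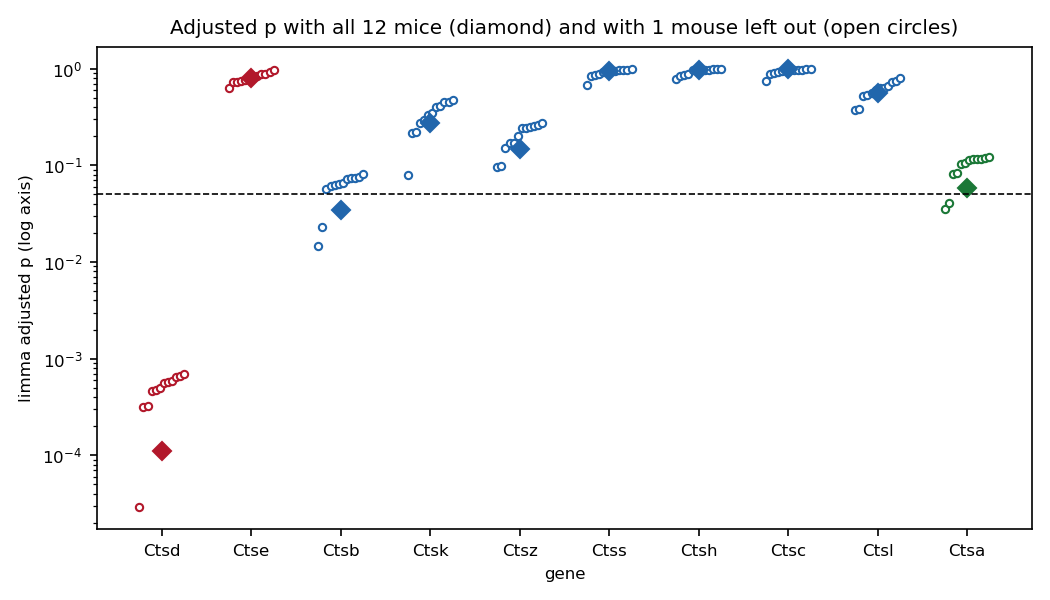
Adjusted p of limma for each cathepsin (log axis) with all 12 mice (diamonds) and with 1 mouse left out at a time (12 open circles), with the threshold of 0.05 as a dashed line. Ctsd stays below the line in all fits, Ctsb crosses it in 10 of 12, and Ctsa drops below it in 2 of 12.

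Within the groups most cathepsins deviated in the same direction in a given mouse. After group and batch means were removed, the 45 pairs of cathepsins had a median Pearson correlation of 0.46 over the 12 mice, and 39 were positive. The median correlation of the cathepsins with all genes tested was -0.0041. Of the 45 pairs, 7 had an adjusted p under 0.05 (Pearson, permutation of mice within groups, 100000 resamples, adjusted over the 45), all positive, and none had one by Spearman's rho. The strongest was Ctsl with Ctss (r = 0.89, permutation p = 0.00034, adjusted p = 0.0153; rho = 0.75, permutation p = 0.0101, adjusted p = 0.0779), and r was 0.71 without the 2 mice farthest from the median. Ctsb with Ctsa had r = 0.80 (permutation p = 0.00307, adjusted p = 0.0276; rho = 0.78, permutation p = 0.00237, adjusted p = 0.0533) and 0.64 without such mice. Ctse was apart: without its pairs the median of the other 36 was 0.59. The points of a mouse share 1 library, and whether depth or RNA quality moves with them was not tested.

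Some mice were at the edge of their group in many cathepsins. Filtered-air mouse 4 was the highest of its group in 9 of 10 cathepsins, the exception being Ctsc. It also had the lowest RNA integrity number of the series, 8.9, and lay above its group median in 10 of 10 marker lists of other cell types. Ozone mouse 6 was the lowest of its group in 6 of 10 cathepsins and lay above its group median in 8 of those 10 lists. Of the other mice, ozone mouse 4, above its median in 10 of 10 lists, was the highest of its group in 4 cathepsins and the lowest in 0. Filtered-air mice 5 and 6 were each the lowest in 4 cathepsins, and lay above their median in 8 and 3 lists. In the average of the resident macrophage list, filtered-air mouse 4 (-0.11) and ozone mouse 6 (-0.11) were each the lowest of their group. The part of RNA quality and of other cells in the cathepsin values was not tested. Without either filtered-air mouse 4 or ozone mouse 6 the estimates for Ctsd, Ctsb and Ctsa were larger.

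**Figure D4:**
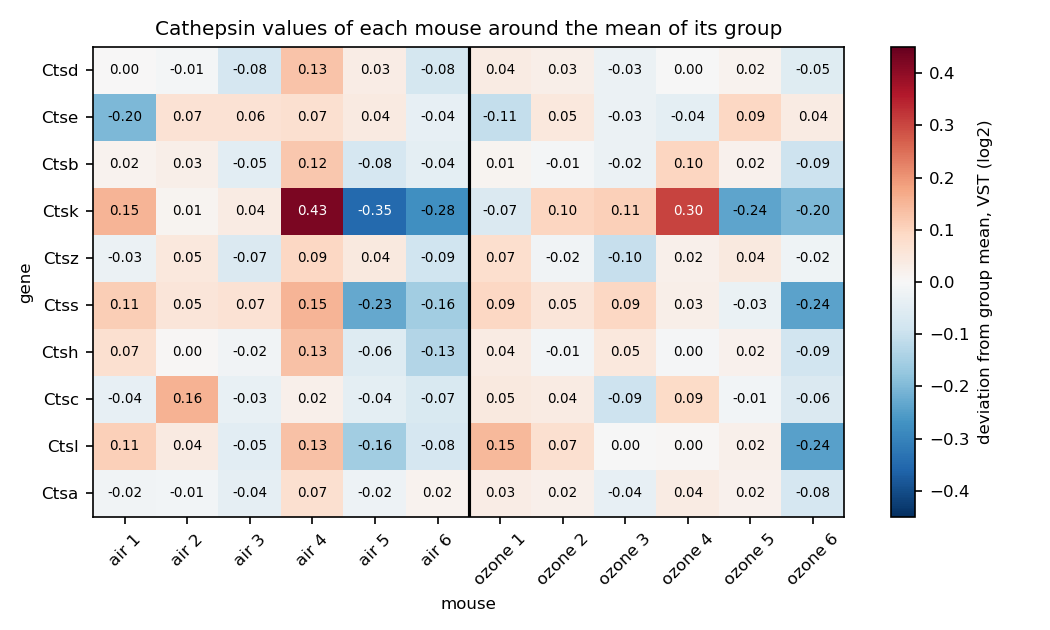
Deviation of each mouse (columns) from the mean of its own group for each cathepsin (rows), in variance-stabilized log2 units, red above and blue below. Filtered-air mouse 4 is above its group mean in 10 of 10 cathepsins, and ozone mouse 6 and filtered-air mouse 6 are above it in 1 each.

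The values of Ctsd across the 12 mice were most like those of Acp5 (r = 0.98), which encodes tartrate-resistant acid phosphatase, and of Itgb5 (r = 0.97), an integrin beta chain. Spp1 (r = 0.97), encoding osteopontin, Rab32 (r = 0.96), encoding a small GTPase, and Nucb1 (r = 0.95), encoding a calcium-binding protein, followed. These 5 have the highest Pearson correlations among all genes tested, so they were selected for it, and the exposure difference is part of each value. Their Spearman coefficients were 0.87, 0.80, 0.93, 0.93 and 0.89 in that order. All 5 were called higher after ozone, by 0.60, 0.35, 0.71, 0.31 and 0.14 in limma, with adjusted p-values of 7.53e-06, 0.000112, 0.000428, 0.00133 and 0.0295.

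Genes that surround the cathepsins were then read from the same fit. Of 21 other lysosomal proteases listed, 9 were measured above the filter and 1 was called. Lgmn, encoding the asparaginyl endopeptidase that processes several cathepsins, ran from 0.14 through 0.26 to 0.34 after ozone and from -0.19 through -0.0035 to 0.19 in filtered air. It rose by 0.25 (SE 0.0587, limma adjusted p = 0.0288), with 5 of 6 ozone mice above every filtered-air mouse, but leaving out 1 mouse at a time ended the call in 8 of 12 fits, as did quantile normalization (limma adjusted p = 0.165). Dpp7, a dipeptidyl peptidase, differed by 0.15 (limma adjusted p = 0.0758) and Napsa, the aspartic protease napsin A, by -0.21 (limma adjusted p = 0.0719). The 9 listed cathepsins of the placental cluster (Ctsj, Ctsm and others) had no varying value. Ctsg, of neutrophil granules, lay above the shared minimum in 1 mouse. The median over the 9 was 0.017.

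Inhibitors did not pass the test: of 16 listed, 9 were above the filter and 0 were called in limma, with 0 at an unadjusted p under 0.05 and a median of 0.033. Cst3, encoding cystatin C, the main secreted inhibitor of cysteine cathepsins, differed by 0.033 (limma adjusted p = 0.776). Cst6, encoding cystatin E/M, differed by 0.11 (limma adjusted p = 0.553), and Serpina3g, encoding a serpin that inhibits cysteine cathepsins, by 0.094 (limma adjusted p = 0.637). Cst6 lay above the shared minimum in 10 mice, the exceptions being filtered-air mice 1 and 5 of batch 1. Single mice moved these small values: Cst3 was 0.011 without ozone mouse 1 and 0.051 without ozone mouse 6, and Cst6 was 0.068 and 0.18 without the same mice. Serpina3g was 0.039 without ozone mouse 6 and 0.14 without filtered-air mouse 4.

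Of 17 genes that sort or accompany lysosomal enzymes, 2 were called, both higher, and the median was 0.025. Psap, the precursor of the saposins, ran from 0.27 through 0.43 to 0.48 after ozone and from -0.097 through 0.024 to 0.086 in filtered air. The groups did not overlap, and Psap rose by 0.41 (SE 0.0462, limma adjusted p = 0.000402), close to the size for Ctsd. Grn, encoding progranulin, which cathepsins cleave to granulins, ran from 0.23 through 0.25 to 0.27 after ozone and from -0.092 through 0.010 to 0.056 in filtered air. It rose by 0.25 (SE 0.0345, limma adjusted p = 0.00160), again with separate groups. The receptors and adaptors themselves were not called; among them Gga2, a clathrin adaptor, had the smallest p, with a difference of 0.14 (limma adjusted p = 0.152).

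None of the 4 MiT/TFE factors was called in limma, and 2 had an unadjusted p under 0.05, in opposite directions. Tfeb differed by 0.13 (limma adjusted p = 0.240), Tfe3 by -0.11 (limma adjusted p = 0.169) and Tfec by 0.14 (limma adjusted p = 0.350). Of the 12 named surrounding genes with a RefSeq promoter window, 4 held CACGTG (Dpp7, Gga2, Glb1 and Lgmn) and 1, Dpp7, held TCACGTGA; Psap, Grn and Neu1 held neither.

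Among 16 partners and substrates above the filter, 2 were called, and both encode the enzymes that cathepsin A protects. Glb1, beta-galactosidase, ran from 0.18 through 0.21 to 0.25 after ozone and from -0.054 through 0.013 to 0.033 in filtered air, and rose by 0.21 (SE 0.0322, limma adjusted p = 0.00267). Neu1, neuraminidase 1, ran from 0.081 through 0.14 to 0.21 and from -0.064 through 0.0056 to 0.070, and rose by 0.14 (SE 0.0365, limma adjusted p = 0.0415). In both the groups did not overlap, and leaving out 1 mouse at a time ended the call for Neu1 in 10 of 12 fits. Neu1 also lost it with a variance trend (limma adjusted p = 0.0519), with the RNA integrity number in the model (limma adjusted p = 0.0594) and after quantile normalization (limma adjusted p = 0.188). The genes for MHC class II presentation, where cathepsin S acts (Cd74, H2-Aa, H2-Ab1, H2-Eb1, H2-DMa, H2-DMb1 and Ciita), all had estimates below 0, between -0.61 and -0.13, and none passed; 6 of the 7 had an unadjusted limma p under 0.05. H2-Ab1 ran from -0.80 through -0.67 to -0.12 after ozone and from -0.44 through 0.027 to 0.68 in filtered air, where mouse 4 was again the highest, and differed by -0.61 (limma adjusted p = 0.0522). It passed without ozone mouse 4 (limma adjusted p = 0.0227), filtered-air mouse 5 (limma adjusted p = 0.0267) or filtered-air mouse 6 (limma adjusted p = 0.0322), and also with no batch term (limma adjusted p = 0.0359) or with the RNA integrity number in the model (limma adjusted p = 0.0430). All 6 members of the B cell marker list had estimates below 0, with 0 called in limma and 4 at an unadjusted p under 0.05. The list averaged between -0.29 and -0.12 in ozone mice and between -0.24 and 0.35 in filtered-air mice. No mouse lay at the shared minimum in any of its members. Of 8 dendritic cell markers, all with no mouse at the shared minimum, 7 had estimates below 0. In limma 0 of them were called and 2 (Clec9a and Btla) had an unadjusted p under 0.05. The dendritic cell list averaged between -0.21 and 0.086 in ozone mice and between -0.19 and 0.19 in filtered-air mice. The part of both lists in the class II values was not tested.

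**Figure D5:**
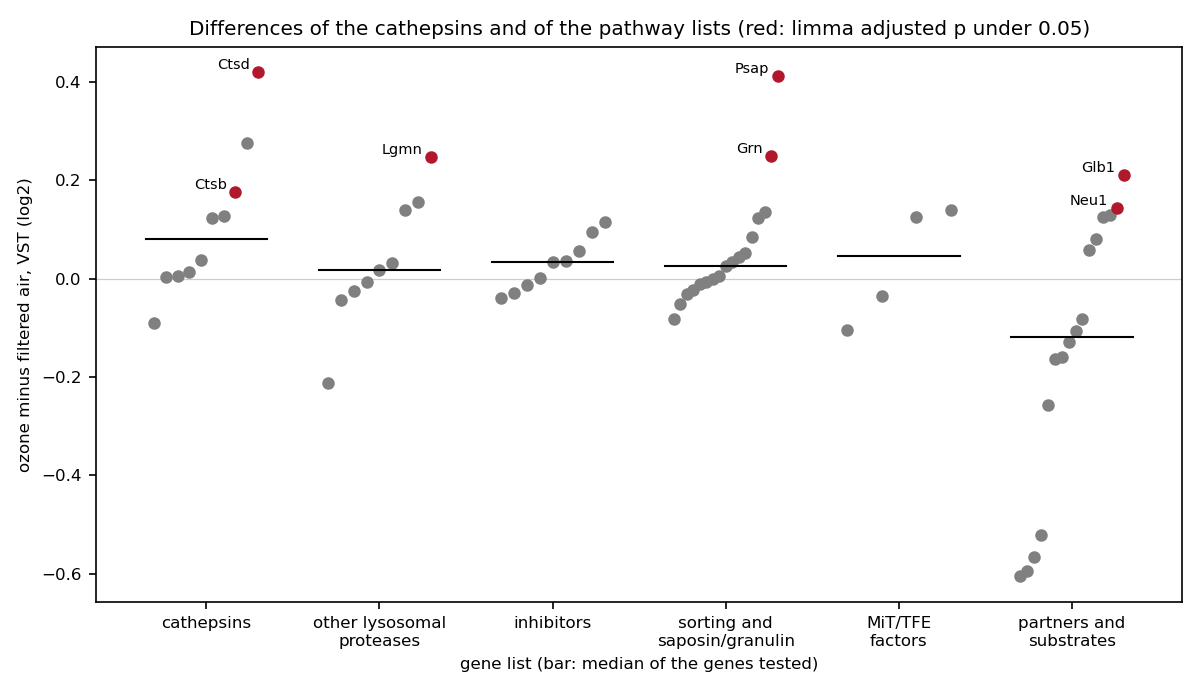
Difference between ozone and filtered air (y axis, variance-stabilized log2 expression) for each tested gene of the cathepsin group and of 5 surrounding lists, with red points where the limma adjusted p was under 0.05 and bars for list medians. The 7 red points (Ctsd, Ctsb, Lgmn, Psap, Grn, Glb1 and Neu1) all lie above 0, and the medians lie between -0.12 and 0.080.

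Markers of monocytes and interstitial macrophages, cells that also express cathepsins, gave no call among 12 measured genes in limma, with 3 at an unadjusted p under 0.05. Their average lay between -0.11 and 0.22 in ozone mice and between -0.21 and 0.35 in filtered-air mice, with mouse 4 the highest of the latter. The ozone and filtered-air averages of this list overlap, whereas the Ctsd values do not.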

How the data were processed

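The deposited table holds log2 values, variance-stabilized and batch corrected by the authors per the deposited file's name. The submitters' processing notes name genome build mm10, cutadapt, STAR 2.7.7a, Salmon 1.5.2, DESeq2 1.26.0, R 3.6.0 and limma 3.42.2, without their roles. The mean of the filtered-air mice and the difference between sort batches were 0 in every gene. All 12 columns matched 1 sample title each.

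Ozone was compared with filtered air in limma 3.58.1 (R 4.3.3) with sort batch as a covariate, no variance trend and Benjamini-Hochberg adjustment over the 19633 genes in which at least 6 of 12 mice lay above the minimum shared by at least 2 mice of the same sort batch (taken as no reads); 5811 varying genes were left out. The pipeline was tested on simulated data. Alternatives were other filters, models, normalization and samples. Members and lists were chosen with earlier results of these data known. Named were all members, in each list the called genes or the 3 with the smallest p, and the 5 genes most correlated with the leading member. Genes overlapping a member were added later. A gene listed as Pgcp was not matched. The p-values measure the spread between mice.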

Additional observations from a re-analysis of the deposited data

Results flagged for a closer look

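Of 50 combinations of gene and exposure group examined, 3 held a mouse whose gap to the next was a large share of the group's range (Dixon's test at the 95% level); chance alone gives about 2.5. In Ctss, ozone mouse 6 lay at -0.23, with the next ozone mouse at -0.016. In Gga2, filtered-air mouse 1 lay at 0.14, with the next at 0.0024. In H2-Ab1, ozone mouse 4 lay at -0.12, above the next at -0.58, and without it the difference was -0.71 (limma adjusted p = 0.0227).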

How the results depend on the processing

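The count of 834 called genes (473 higher, 361 lower) became 178 (112 and 66) after quantile normalization, 90 (71 and 19) in batch 1 alone and 0 (0 and 0) in batch 2 alone, where 1800 genes had an unadjusted p under 0.05 in limma; the variance trend gave 221 lower genes. Without single mice it ranged from 538 (without filtered-air mouse 1) to 751, with 326 to 456 higher and 212 (again without filtered-air mouse 1) to 312 lower. Called cathepsins numbered 1 after quantile normalization, 1 in batch 1 and 0 in batch 2 (1 at an unadjusted p under 0.05 in limma), and 1 to 3 without single mice (3 without filtered-air mouse 4 or ozone mouse 6). Called surrounding genes numbered 9 with no batch term, 3 after quantile normalization, 1 in batch 1, 0 in batch 2 (14 at an unadjusted p under 0.05 in limma) and 3 (without ozone mouse 1, 2, 3 or 5) to 9 (without ozone mouse 4; 8 without filtered-air mouse 5) without single mice; batches use fewer mice, and other causes were not tested.

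Members near 0 changed sign without passing. The estimate for Ctsc was -0.010 after quantile normalization, -0.0029 once the RNA integrity number was added to the model, and -0.071 in batch 2. Leaving out single mice gave -0.016 to 0.038 for Ctsc, -0.023 to 0.035 for Ctsh, -0.037 to 0.067 for Ctss and -0.0069 to 0.062 for Ctse. In batch 2 Ctss was -0.020 and Ctse -0.027. For these sign changes the cause was not tested.

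Replicate numbers are shared by different animals: same-numbered mice correlated from -0.0026 to 0.28, over 0.1 in 4 of 6 pairs, and 6 of 12 mice correlated best with their own number, so mice were not paired. A replicate block gave 853 called genes, of which 686 were among the 834, 3 called cathepsins (Ctsk added, limma adjusted p = 0.0169) and 9 called surrounding genes (H2-Ab1 among those added, limma adjusted p = 0.00320, and Neu1 lost, limma adjusted p = 0.0629).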
